A study of Homo sapiens with 8 samples.

Results

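The genes described here make, desaturate, elongate, store, release, take up and burn fatty acids. They are 50 genes chosen by symbol, from a list of known lipid enzymes, carriers and regulators, out of 59050 gene symbols counted in each library. RNA was sequenced from xenograft tumours of H2122, a long-established line of human lung cancer cells. The parental group held 4 tumours with SMARCA4 intact (genotype labelled WT) and the knockout group held 4 tumours with SMARCA4 disrupted. Both groups had been given vehicle, so no active drug is compared here. SMARCA4 encodes BRG1, one of the alternative motor subunits of SWI/SNF, the complex that slides and evicts nucleosomes. The host strain, the age of the hosts, the vehicle and whether the knockout cells were 1 clone or a pool are not given in the sources used here. Because the replicates are described only as replicate tumours, the p-values measure the spread between these tumours.

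Fatty acids are built from acetyl-CoA in the cytosol: ACLY or ACSS2 supplies acetyl-CoA, acetyl-CoA carboxylase converts it to malonyl-CoA, and fatty acid synthase assembles palmitate. Desaturases and elongases then adjust the chain, acyl-CoA synthetases activate it, and acyltransferases build it into phospholipid and triglyceride, which is kept in droplets coated by perilipins. Lipases release fatty acids from droplets or from circulating lipoproteins, and mitochondria oxidise them after transfer by the carnitine palmitoyltransferases. SREBF1 encodes SREBP1 and MLXIPL encodes ChREBP, transcription factors best known for raising lipogenic genes when insulin or carbohydrate is plentiful.

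The 8 libraries held 19785922 to 23191698 counts assigned to genes. SMARCA4 itself stood at 198 to 235 CPM (counts scaled to library size after normalisation) in the parental tumours and at 22.3 to 31.1 CPM in the knockout tumours, a log2 fold change of -3.02 (adjusted p = 1.45e-07, edgeR quasi-likelihood test). Epithelial tumour cell markers summed to 8645 to 9797 CPM in parental tumours and 7296 to 8688 CPM in the knockout group, and KRT7, KRT19, CLDN4 and CLDN7 of these 10 genes were lower in knockout. Parental tumours 2 and 3 stood apart in the sum of 12 leukocyte and macrophage markers. It was 78.3 and 66.1 CPM there against 7.74 to 31.7 CPM in the other 6 tumours. LYZ alone held 38.2 and 36.8 CPM of those 2 sums, and CD68 and ADGRE1 did not stand apart. Parental tumour 2 also held 46.1 CPM of skeletal muscle markers, against 2.54 to 18.7 CPM elsewhere. In these bulk tumours, fewer cells of a type and less RNA per cell cannot be told apart. Whether host reads were separated is not given, and their part in counts under these human symbols was not tested. Every fold change below is knockout over parental.

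Of the 50 genes, 46 were tested and 4 (ELOVL2, ELOVL4, FABP4 and FABP5) had too few counts. At an adjusted p under 0.05, 8 of the 46 were higher in the knockout tumours and 12 were lower, so 20 (43.5%) changed; over all 16219 genes tested the share was 27.0%. The lower calls made up 26.1% of the tested lipid genes against 14.1% of all genes tested, and the higher calls 17.4% against 13.0%. The 4 parental and 4 knockout values did not overlap for 21 of the 46, where 29.3% of all genes tested had groups that did not overlap. The median log2 fold change was -0.12 for the lipid genes and 0.00 for all genes tested, and the median absolute change was 0.33 and 0.25. The changes were thus split in direction, and 7 of the 20 reached 2-fold: ACACB, SCD and ELOVL3 upward and SCD5, PLIN2, LIPE and LPL downward.

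**Figure D1:**
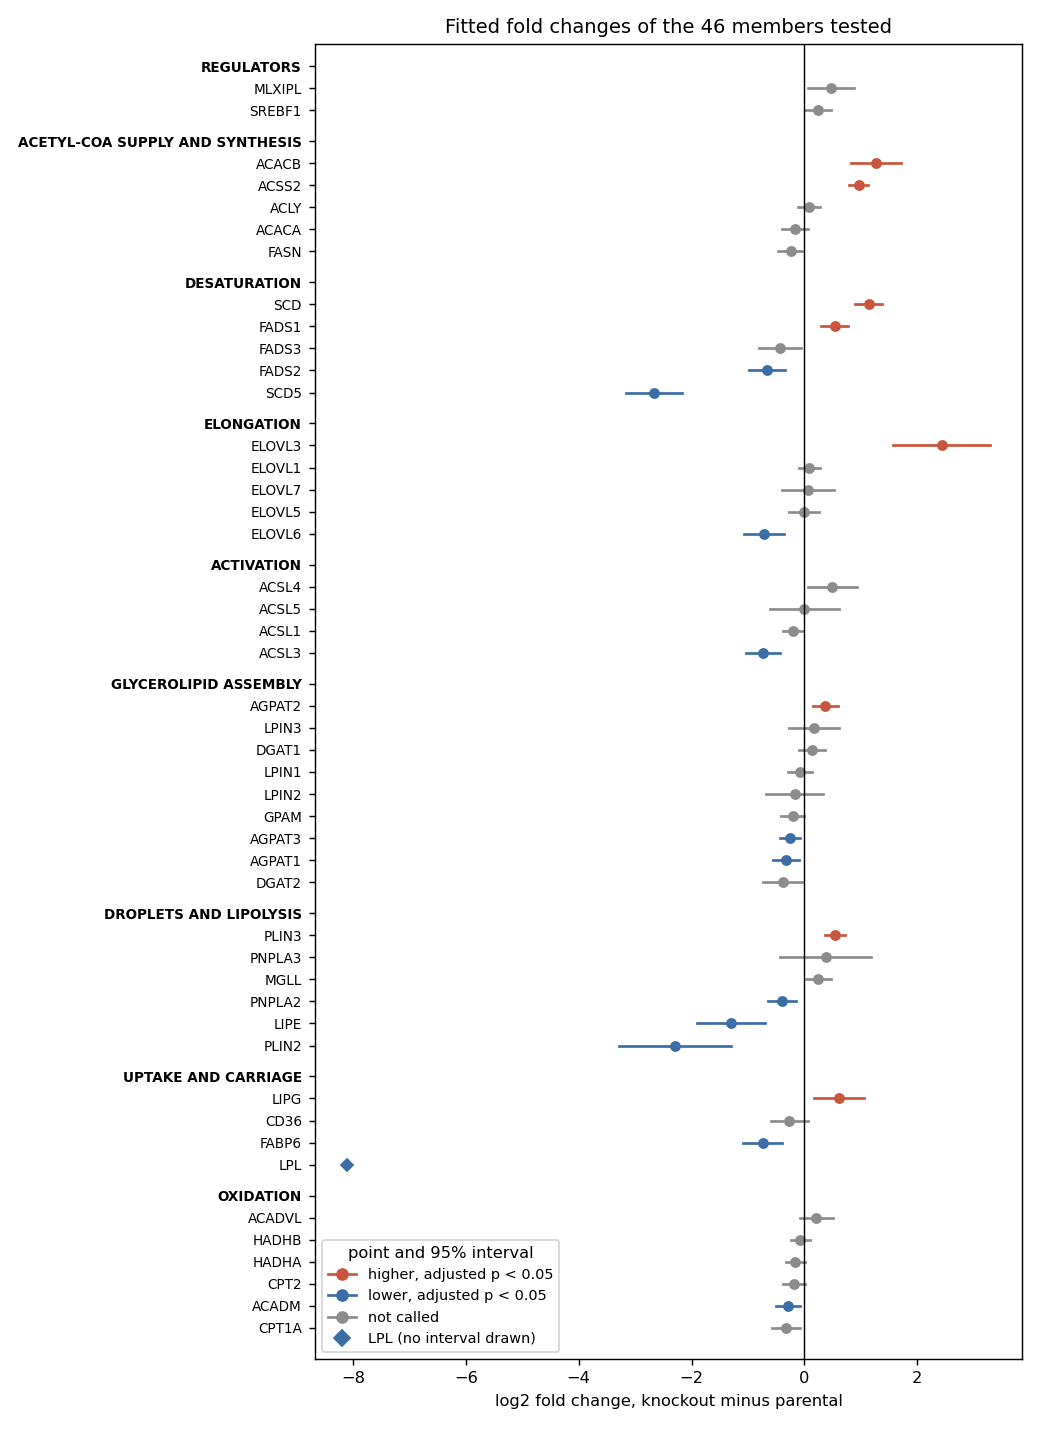
Log2 fold change (knockout over parental, x axis) with its 95% interval for each tested lipid gene, ordered by role. LPL is drawn without its interval. LPL lies farthest to the left and ELOVL3 farthest to the right, and genes of the same role lie on both sides of 0 in desaturation, elongation and droplets.

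Read per length, as CPM per kilobase of annotated exon, the stearoyl-CoA desaturase SCD was the most abundant of the 50 in both groups, at a mean of 134 in parental and 295 in knockout tumours. FASN followed at 98.8 CPM per kilobase in parental tumours and ACADVL at 87.4 in knockout tumours. Summed over the 5 desaturases, the level was 139.9 to 188 CPM per kilobase in parental and 299 to 340 in knockout tumours, with no overlap. The uptake and carriage genes summed to 39.2 to 54.8 in parental and 30.3 to 43.2 CPM per kilobase in knockout tumours, with overlap. Synthesis genes summed to 156 to 189 and 146 to 171 CPM per kilobase, and oxidation genes to 176 to 212 and 186 to 203. Of the 9 role sums, desaturation alone had groups that did not overlap. That sum follows 1 gene, since SCD made up 85.6% to 87.5% of it in parental and 91.9% to 93.7% in knockout tumours.

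**Figure D2:**
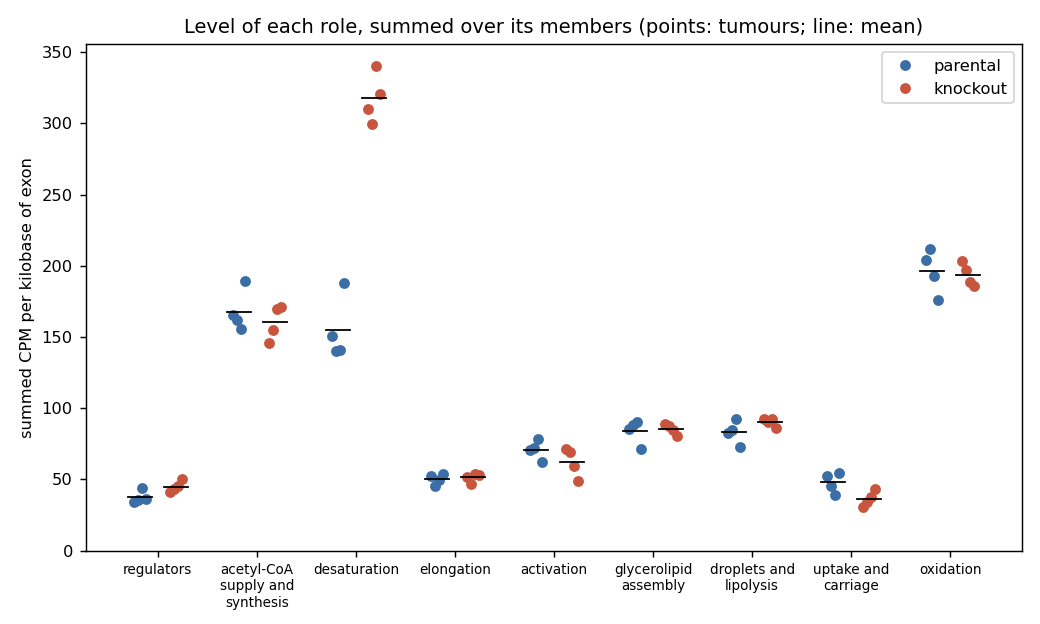
Summed CPM per kilobase of exon for each role in each tumour (points, parental and knockout side by side, with the group means). The desaturation sum is 139.9 to 188 in parental and 299 to 340 in knockout tumours, and the other sums overlap between the groups.

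Neither regulator passed the test. SREBF1 averaged 282 ± 34.7 CPM in parental tumours and 335 ± 30.1 CPM in knockout tumours (n = 4 per group, SD), a log2 fold change of 0.25 with a 95% interval of 0.01 to 0.48 and an adjusted p of 0.11 (edgeR). MLXIPL averaged 11.8 ± 2.94 and 16.3 ± 2.39 CPM (n = 4 per group, SD), a log2 fold change of 0.47 with an interval of 0.06 to 0.87 and an adjusted p of 0.0874. Both point estimates were above 0 and the groups overlapped for both genes; SREBF1 passed when parental tumour 3 was left out (adjusted p = 0.0322).

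In acetyl-CoA supply and synthesis, 2 of 5 genes rose and none fell, so 40% changed beside 27.0% of all genes tested. ACSS2, the cytosolic enzyme that makes acetyl-CoA from acetate (chromosome 20, 34872146 to 34927962, plus strand, GENCODE 29 on GRCh38), stood at 37.6, 34.3, 36.3 and 36.0 CPM in parental tumours 1 to 4. Its values in knockout tumours 1 to 4 were 68.4, 71.9, 67.5 and 73.3 CPM. All knockout tumours lay far above all parental tumours, and the values within each group were close, with a coefficient of variation of 3.73% in parental and 3.96% in knockout. ACSS2 rose 1.95-fold (log2 fold change 0.96, SE 0.0756, adjusted p = 6.37e-06).

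ACACB, the carboxylase isozyme of the mitochondrial surface whose malonyl-CoA restrains fatty acid entry into mitochondria (chromosome 12, 109116595 to 109268226, plus strand), stood at 5.02, 6.98, 5.40 and 3.27 CPM in parental tumours. In knockout tumours it stood at 14.0, 10.6, 13.3 and 11.9 CPM. The lowest knockout value exceeded the highest parental value, and parental tumour 4 was lowest of all. ACACB rose 2.41-fold (log2 fold change 1.27, SE 0.204, adjusted p = 0.000823). Its cytosolic counterpart ACACA, which feeds synthesis, was far more abundant and did not pass, with 193 ± 25.1 CPM in parental tumours and 171 ± 10.8 CPM in knockout tumours (n = 4 per group, SD; log2 fold change -0.17, interval -0.40 to 0.06). The within-tumour log2 ratio of ACACB to ACACA was -5.98 to -4.86 in parental and -3.94 to -3.54 in knockout tumours, so the groups were separate and ACACA remained the larger in CPM in every tumour.

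ACLY, which makes acetyl-CoA from citrate, averaged 247 ± 17.2 and 260 ± 21.7 CPM (n = 4 per group, SD), with a log2 fold change of 0.08 and an interval of -0.12 to 0.27. FASN, the synthase that produces palmitate, averaged 925 ± 105 CPM in parental tumours and 782 ± 71.0 CPM in knockout tumours (n = 4 per group, SD). Its log2 fold change was -0.24, with an interval of -0.47 to -0.02 and an adjusted p of 0.108, and the groups overlapped by a narrow margin, since knockout tumour 4 (857 CPM) exceeded parental tumour 2 (848 CPM). Without parental tumours 2 and 3, FASN passed as lower in the knockout.

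Desaturation held changes in opposite directions within both of its enzyme pairs: SCD and FADS1 rose while SCD5 and FADS2 fell. SCD and SCD5 place the first double bond in saturated acyl chains, giving monounsaturated fatty acids. FADS2 (delta-6) and FADS1 (delta-5) act in sequence on polyunsaturated chains, and FADS3 is a related desaturase that acts on sphingoid bases. The start-site windows of these 4 genes are shown because related enzymes moved in opposite directions. Each runs from 250 bases before to 50 bases after a RefSeq start on GRCh38.p14, 5′ to 3′ on the gene's own strand, and FADS2 is shown at its second start. Capitals mark matches, on either strand, to 4 motifs. The first is CACCCCA, a core found in sites for the SREBP transcription factors. The second is the E-box, which reads CACGTG and is a target of several helix-loop-helix factors. The third is the box named by its letters CCAAT, a frequent promoter element bound by the factor NF-Y, and read on the reverse strand as ATTGG in these windows. The last is the hexamer AGGTCA, which many nuclear receptors recognise.
SCD, chr10:100346983-100347282, plus strand: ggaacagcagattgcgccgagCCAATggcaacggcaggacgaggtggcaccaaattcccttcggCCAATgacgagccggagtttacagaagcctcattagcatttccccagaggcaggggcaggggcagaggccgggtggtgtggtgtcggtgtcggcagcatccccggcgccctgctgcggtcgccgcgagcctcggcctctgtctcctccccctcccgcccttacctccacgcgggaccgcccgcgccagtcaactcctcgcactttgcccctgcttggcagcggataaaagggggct
SCD5, chr4:82798747-82799046, minus strand: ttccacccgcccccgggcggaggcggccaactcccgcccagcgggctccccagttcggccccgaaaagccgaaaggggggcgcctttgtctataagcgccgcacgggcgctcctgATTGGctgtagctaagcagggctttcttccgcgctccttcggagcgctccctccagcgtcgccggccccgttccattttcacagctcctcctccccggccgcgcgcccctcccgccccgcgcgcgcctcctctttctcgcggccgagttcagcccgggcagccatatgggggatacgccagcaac
FADS1, chr11:61816954-61817253, minus strand: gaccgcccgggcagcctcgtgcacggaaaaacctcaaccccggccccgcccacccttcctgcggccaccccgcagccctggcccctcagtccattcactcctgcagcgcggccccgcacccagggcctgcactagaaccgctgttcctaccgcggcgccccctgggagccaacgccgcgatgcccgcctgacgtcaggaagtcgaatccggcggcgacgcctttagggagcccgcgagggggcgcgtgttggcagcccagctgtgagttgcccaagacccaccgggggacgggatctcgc
FADS2, chr11:61816154-61816453, plus strand: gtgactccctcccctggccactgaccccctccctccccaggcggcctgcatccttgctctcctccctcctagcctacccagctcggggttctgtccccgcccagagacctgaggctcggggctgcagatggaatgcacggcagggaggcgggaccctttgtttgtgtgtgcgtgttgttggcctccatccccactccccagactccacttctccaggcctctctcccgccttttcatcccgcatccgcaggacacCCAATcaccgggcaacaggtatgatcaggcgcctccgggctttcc
Counting from 1 at the 5′ end of each window, the capitals in SCD are CCAAT boxes at 22 and 65, the one in SCD5 is a reverse CCAAT at 116, and the one in FADS2 is a CCAAT at 256, past the start site. FADS1 held none of the 4 motifs in this window. The window at the first FADS2 start, which is not shown, also held none of them. The windows were 66.3% (SCD), 70.7% (SCD5), 72.0% (FADS1) and 65.0% (FADS2) G or C.

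Promoter windows were present for 41 of the 50 genes, with 67 windows in all. CCAAT occurred in 38.8% of them and in 34.6% of 35116 RefSeq windows of the same length. CACCCCA occurred in 10.4% against 8.08%, CACGTG in 5.97% against 7.26% and AGGTCA in 7.46% against 13.8%. A match is a description of letters and says nothing of binding, and none of these motifs overlaps another in the 4 windows shown.

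SCD (chromosome 10, 100347124 to 100364834, plus strand) stood at 694, 650, 647 and 884 CPM in parental tumours 1 to 4. In knockout tumours it stood at 1558, 1475, 1709.5 and 1585 CPM. Every knockout tumour lay well above every parental tumour, among which tumour 4 was highest. SCD rose 2.20-fold (log2 fold change 1.14, SE 0.112, adjusted p = 2.91e-05).

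SCD5 (chromosome 4, 82629539 to 82798857, minus strand), the second human stearoyl-CoA desaturase, stood at 4.97, 7.13, 6.25 and 4.55 CPM in parental tumours. In knockout tumours it stood at 1.12, 0.829, 0.933 and 0.700 CPM. The lowest parental value was several times the highest knockout value, and the groups were separate. SCD5 fell by 2.67 in log2 units (SE 0.228, adjusted p = 1.07e-05), a level 6.35-fold lower. The within-tumour log2 ratio of SCD5 to SCD was -6.98 ± 0.49 in parental tumours and -10.81 ± 0.29 in the knockout group (n = 4 per group, SD), so SCD5 was the minor form in CPM in all 8.

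FADS1 (chromosome 11, 61799625 to 61829318, minus strand) averaged 122 ± 14.6 CPM in parental tumours and 178 ± 18.6 CPM in knockout tumours (n = 4 per group, SD) and rose 1.45-fold (log2 fold change 0.54, SE 0.108, adjusted p = 0.00339). FADS2 (chromosome 11, 61792980 to 61867354, plus strand) averaged 59.1 ± 9.85 and 37.2 ± 6.67 CPM (n = 4 per group, SD) and fell by 0.67 in log2 units (SE 0.146, adjusted p = 0.00579). Neither gene's groups overlapped. These neighbours are transcribed in opposite directions from RefSeq starts 599 and 800 bases apart. Their annotated exons overlap a little, by 5.57% of FADS1 and 4.89% of FADS2 (other genes included), and since the strand setting of the counting is not given in the sources used here, reads there cannot be assigned by strand. The within-tumour log2 ratio of FADS1 to FADS2 was 1.06 ± 0.11 in parental tumours and 2.27 ± 0.13 in the knockout group (n = 4 per group, SD), with separate groups. FADS3 averaged 14.1 ± 3.46 and 10.4 ± 1.07 CPM (n = 4 per group, SD; log2 fold change -0.44, interval -0.81 to -0.06, adjusted p = 0.0825) and did not pass, although it did without parental tumour 2 (adjusted p = 0.02).

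**Figure D3:**
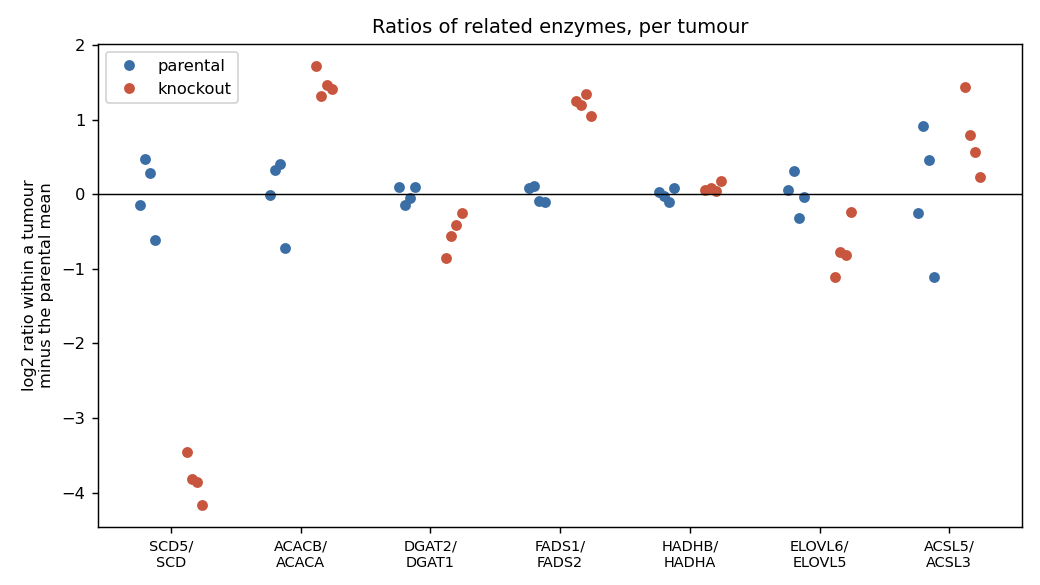
Log2 ratio of CPM within each tumour, minus the parental mean of that ratio (y axis), for 7 pairs of related enzymes. Parental and knockout tumours are side by side. Before that subtraction, SCD5/SCD was -7.60 to -6.51 in parental and -11.14 to -10.44 in knockout tumours. FADS1/FADS2 was 0.96 to 1.16 in parental and 2.098 to 2.40 in knockout tumours. HADHB/HADHA, ELOVL6/ELOVL5 and ACSL5/ACSL3 overlap between groups.

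Among the 7 elongases, which add 2-carbon units to acyl-CoA, ELOVL3 rose, ELOVL6 fell and 3 of the 5 tested did not pass. The share called was 40%, beside 27.0% of all genes tested. ELOVL3, an elongase of saturated and monounsaturated chains (chromosome 10, 102226328 to 102229589, plus strand), stood at 0.363, 0.195, 0.0893 and 0.213 CPM in parental tumours. In knockout tumours it stood at 0.748, 1.12, 1.45 and 1.35 CPM. The groups were separate but low, with 18 counts over the 4 parental and 99 over the 4 knockout libraries. ELOVL3 rose 5.40-fold (log2 fold change 2.43, SE 0.393, adjusted p = 0.000797). ELOVL6, which lengthens palmitate to stearate, averaged 29.2 ± 4.95 CPM in parental tumours and 17.8 ± 3.52 CPM in knockout tumours (n = 4 per group, SD) and fell by 0.72 in log2 units (SE 0.159, adjusted p = 0.00612), with separate groups.

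ELOVL1, which acts on very long saturated chains, held the largest share of the elongase sum per kilobase, 57.2% to 65.2% in parental and 61.2% to 67.2% in knockout tumours. It averaged 77.9 ± 2.69 and 82.8 ± 7.66 CPM (n = 4 per group, SD; log2 fold change 0.09, interval -0.10 to 0.28). ELOVL5, an elongase of polyunsaturated chains, averaged 51.0 ± 9.18 and 50.8 ± 3.16 CPM (n = 4 per group, SD), with an interval of -0.28 to 0.27 around a log2 fold change of -0.00. ELOVL7 averaged 7.48 ± 1.38 and 7.79 ± 2.04 CPM (n = 4 per group, SD; interval -0.40 to 0.52). ELOVL2, which lengthens long polyunsaturated chains, had 9 counts in parental and 51 in knockout libraries. Its CPM groups did not overlap, the exact two-sided permutation p was 0.0286, the smallest that 4 against 4 allows, and the value adjusted over the 3 genes tested this way was 0.0857. In a fit with no count filter, ELOVL2 passed at a log2 fold change of 2.45 (adjusted p = 0.00297). Its ratio of pooled parental to knockout counts per effective size was 0.175 (exact 95% interval 0.0755 to 0.358, counting error only). ELOVL4, known from very long chains of retina and skin, had 0 counts in all 8 libraries, where a count of 0 allows up to 3 counts each.

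Of the 4 acyl-CoA synthetases, which attach coenzyme A to free fatty acids, 1 passed, or 25% beside the 27.0% of all genes tested. ACSL3, associated with the endoplasmic reticulum and young lipid droplets, averaged 189 ± 37.7 CPM in parental tumours and 114 ± 9.65 CPM in knockout tumours (n = 4 per group, SD) and fell by 0.73 in log2 units (SE 0.138, adjusted p = 0.00241). Its lowest parental tumour, number 2 at 137 CPM, was still above all knockout tumours (100.4 to 122 CPM). ACSL1, the form prominent in fat and liver, averaged 57.2 ± 3.90 and 49.8 ± 0.507 CPM (n = 4 per group, SD). Its groups did not overlap, and its log2 fold change of -0.20 (interval -0.37 to -0.03) had an adjusted p of 0.0821, or 0.0446 without parental tumour 3.

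ACSL4, which prefers arachidonate, varied widely in the knockout tumours, at 69.2, 95.6, 63.8 and 40.5 CPM, while the parental tumours lay between 44.8 and 49.5 CPM. Its log2 fold change was 0.49 (interval 0.06 to 0.93, adjusted p = 0.0894). Knockout tumour 4 was below every parental tumour, and without it ACSL4 passed (adjusted p = 0.00478). ACSL5, which is found on mitochondria and endoplasmic reticulum, ranged from 62.7 to 156 CPM in parental tumours and from 80.9 to 164 CPM in knockout tumours. Its group means were both 119.6 CPM, with an interval for the log2 fold change of -0.61 to 0.61.

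In glycerolipid assembly 1 of 9 genes rose, 2 fell and 6 did not pass. That share of 33.3% stands beside the 27.0% of all genes tested, and no change reached 1.5-fold. The AGPAT enzymes convert lysophosphatidic acid to phosphatidic acid. AGPAT2, whose loss causes lipodystrophy in people, averaged 35.2 ± 3.92 CPM in parental tumours and 45.6 ± 2.72 CPM in knockout tumours (n = 4 per group, SD) and rose by 0.37 on the log2 scale (adjusted p = 0.0150), with separate groups. AGPAT1 averaged 43.7 ± 5.63 and 34.8 ± 1.75 CPM (n = 4 per group, SD) and fell by 0.33 on the log2 scale (adjusted p = 0.0369), with overlapping groups. AGPAT3 averaged 160.1 ± 6.63 and 134 ± 10.3 CPM (n = 4 per group, SD) and fell by 0.26 on the log2 scale (adjusted p = 0.0370). All 3 calls could be lost by leaving out 1 library. AGPAT2 was lost without parental tumour 1 (adjusted p = 0.0548), AGPAT1 without any tumour except parental 4 (up to 0.0950) and AGPAT3 without any tumour except parental 4 or knockout 3 (up to 0.112). Other annotated genes overlap 30.2% of AGPAT1's exonic sequence. Of the 20 tested genes nearest to AGPAT2, 1 had a log2 fold change below 0, with a median of 0.27. The number below 0 was 12 for AGPAT1 (median -0.04) and 7 for AGPAT3 (median 0.13). Any link between the AGPAT2 rise and its neighbours was not tested.

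GPAM, the mitochondrial acyltransferase of the first step, averaged 29.9 ± 2.66 and 25.9 ± 1.42 CPM (n = 4 per group, SD; log2 fold change -0.20, interval -0.41 to 0.00). The lipins turn phosphatidic acid into diacylglycerol. LPIN1 had a log2 fold change of -0.08 (interval -0.29 to 0.13), LPIN2 of -0.17 (-0.67 to 0.33) and LPIN3 of 0.17 (-0.27 to 0.61). LPIN2 was highest in tumour 2 of both groups, at 83.5 CPM in the parental and 76.9 CPM in the knockout one. The last step of triglyceride synthesis belongs to DGAT1 and DGAT2. DGAT1 averaged 46.8 ± 6.24 and 51.1 ± 3.07 CPM (n = 4 per group, SD; log2 fold change 0.13, interval -0.10 to 0.36). DGAT2 averaged 6.86 ± 1.02 and 5.26 ± 0.729 CPM (n = 4 per group, SD; log2 fold change -0.38, interval -0.74 to -0.03, adjusted p = 0.104). Neither passed alone, and their within-tumour log2 ratio (DGAT2 to DGAT1) was -2.92 to -2.67 in parental and -3.63 to -3.02 in knockout tumours, without overlap.

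In droplets and lipolysis, PLIN3 rose and PLIN2, PNPLA2 and LIPE fell. PLIN2 coats the droplets of most non-adipose cells (chromosome 9, 19108375 to 19149290, minus strand). It stood at 4.04, 14.99, 5.85 and 4.59 CPM in parental tumours and at 1.78, 2.19, 1.31 and 0.747 CPM in knockout tumours. The groups were separate, and parental tumour 2 stood far above the rest. PLIN2 fell by 2.29 in log2 units (SE 0.453, adjusted p = 0.00312), a level 4.88-fold lower; without parental tumour 2 the log2 fold change was -1.68, and without parental tumours 2 and 3 it was -1.53 (adjusted p = 0.00644).

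PLIN3, a perilipin that moves between cytosol and new droplets (chromosome 19, 4838341 to 4867768, minus strand), stood at 106, 111, 101 and 94.9 CPM in parental tumours. In knockout tumours it stood at 157, 151, 155 and 139.5 CPM. Every knockout tumour was above every parental tumour, with little spread in either group. PLIN3 rose 1.46-fold (log2 fold change 0.54, SE 0.0816, adjusted p = 0.000537), and another annotated gene, AC027319.1, overlaps 17.9% of its exonic sequence.

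LIPE encodes hormone-sensitive lipase, which cleaves diacylglycerol (chromosome 19, 42401507 to 42427426, minus strand). It stood at 5.08, 3.71, 8.44 and 6.21 CPM in parental tumours and at 1.59, 2.19, 3.08 and 2.66 CPM in knockout tumours. The groups were separate, with the narrowest gap between parental tumour 2 and knockout tumour 3. LIPE fell by 1.30 in log2 units (SE 0.276, adjusted p = 0.00477), a level 2.46-fold lower, and an antisense gene, LIPE-AS1, overlaps 9.6% of its exonic sequence.

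PNPLA2 encodes ATGL, the lipase that starts triglyceride breakdown. It averaged 143 ± 24.5 CPM in parental tumours and 109 ± 1.43 CPM in knockout tumours (n = 4 per group, SD) and fell by 0.40 on the log2 scale (adjusted p = 0.0202), with separate groups; without knockout tumour 1 or 3 it did not pass (adjusted p up to 0.0565). PNPLA3, its relative on droplets, was scarce at 0.543 ± 0.195 and 0.710 ± 0.261 CPM (n = 4 per group, SD; interval -0.43 to 1.18). MGLL, which splits monoacylglycerol, averaged 74.5 ± 6.87 and 88.7 ± 8.72 CPM (n = 4 per group, SD; log2 fold change 0.25, interval 0.04 to 0.46, adjusted p = 0.0796), and passed without parental tumour 3 (adjusted p = 0.0439). Per kilobase, PLIN3 was 39.0% to 46.9% of the droplet and lipolysis sum in parental and 57.7% to 60.5% in knockout tumours, while PNPLA2 was 41.1% to 50.1% and 30.1% to 33.1%.

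**Figure D4:**
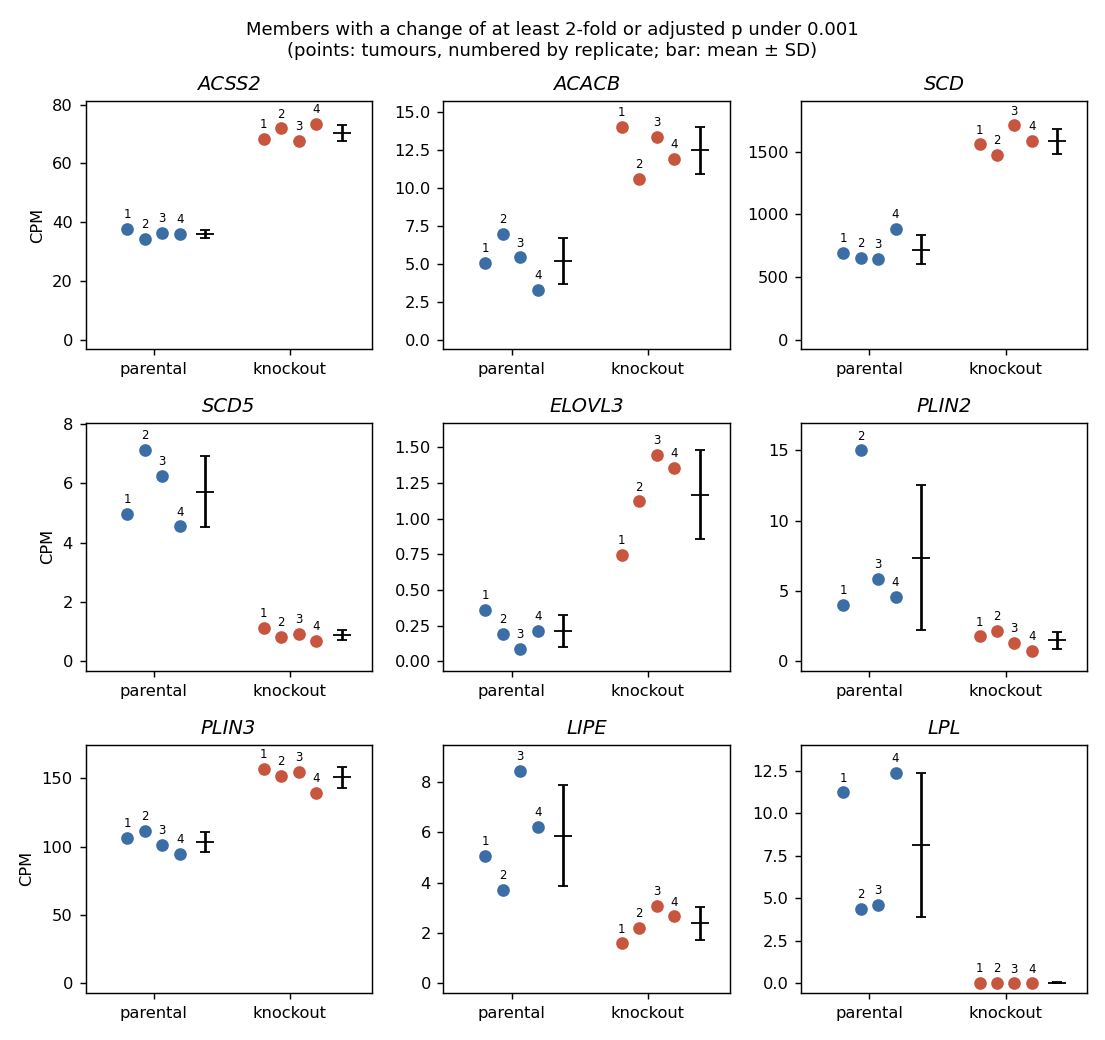
CPM in each tumour (y axis, linear scale), parental and knockout tumours side by side, with group mean and SD. The 9 genes had an adjusted p under 0.001 or a called change of at least 2-fold. ACSS2, ACACB, SCD, ELOVL3 and PLIN3 lie higher and SCD5, PLIN2, LIPE and LPL lower in knockout tumours, none with overlapping groups.

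In uptake and carriage, LIPG rose, LPL and FABP6 fell, and CD36, the most abundant of the 6, did not pass. LPL encodes lipoprotein lipase, which frees fatty acids from circulating triglyceride (chromosome 8, 19901717 to 19967259, plus strand). It stood at 11.2, 4.39, 4.60 and 12.4 CPM in parental tumours and at 0.0467, 0.0488, 0 and 0 CPM in knockout tumours. Knockout tumours 1 and 2 held 1 read each and knockout tumours 3 and 4 none, against 701 counts over the 4 parental libraries. The ratio of pooled parental to knockout counts per effective size was 347 (exact 95% interval 95.6 to 2868, counting error only), and LPL was lower at an adjusted p of 8.88e-06. Without knockout tumour 1 the ratio was 518 (92.7 to 20499), and without knockout tumour 2 it was 526 (94.0 to 20787). Parental tumours 2 and 3, in which the leukocyte and macrophage marker sums were highest, held less LPL than parental tumours 1 and 4. Of the 20 tested genes nearest to LPL, 10 on each side, 16 had a log2 fold change below 0, with a median of -0.68. Over all 16219 genes tested, 8027 had a log2 fold change below 0.

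LIPG, the endothelial lipase of high-density lipoprotein, averaged 5.06 ± 1.29 CPM in parental tumours and 7.76 ± 1.46 CPM in knockout tumours (n = 4 per group, SD). It rose by 0.62 on the log2 scale (adjusted p = 0.0425) with overlapping groups, and the call was lost without parental tumour 1, 2 or 3 or knockout tumour 1 or 3 (adjusted p up to 0.127). FABP6, the ileal bile acid binding protein, averaged 11.9 ± 0.720 and 7.12 ± 1.62 CPM (n = 4 per group, SD) and fell by 0.74 in log2 units (SE 0.158, adjusted p = 0.00485), with separate groups. CD36, the fatty acid scavenger receptor, averaged 385 ± 68.2 and 321 ± 51.7 CPM (n = 4 per group, SD; log2 fold change -0.26, interval -0.59 to 0.06). It made up 70.4% to 76.2% of the uptake sum per kilobase in parental and 77.4% to 84.2% in knockout tumours. Without parental tumours 2 and 3, CD36 passed at a log2 fold change of -0.47 (adjusted p = 0.028).

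FABP4, the fatty acid binding protein of adipocytes and macrophages, had 6 counts in parental and 0 in knockout libraries (exact two-sided permutation p = 0.143). FABP5, its epidermal relative, had 20 and 7 counts (exact two-sided permutation p = 0.143; ratio of pooled counts 2.83, exact interval 1.15 to 7.91). GENCODE 29 holds 14 records of FABP5 pseudogenes, with the name FABP5P13 listed more than once, so reads shared with a copy may not have been counted. Of 11 adipocyte markers, 10 were in the files. ADIPOQ and CIDEA were at 0 in all 8 libraries, while the summed level was 3.89 to 5.80 CPM in parental tumours and 10.9 to 17.8 CPM in knockout tumours, mostly CFD. CFD stood at 1.65 to 3.78 CPM in parental and 8.43 to 16.2 CPM in knockout tumours, and it and AQP7, the 2 adipocyte markers tested, were both higher in the knockout. RBP4 (53 and 11 counts) and GPD1 (28 and 9 counts), too scarce to test, lay lower in the knockout with groups that did not overlap. PLIN1 (28 and 56 counts) and CIDEC (4 and 18 counts), also too scarce to test, had more counts in the knockout, with overlapping groups. LEP and LGALS12 had at most 1 count in each group. The 10 endothelial markers summed to 7.51 to 18.5 CPM in parental tumours and 9.11 to 15.5 CPM in knockout tumours, with overlap, and PECAM1 made up most of that sum. Of the 2 endothelial markers tested, PECAM1 did not pass and VWF was 5.18-fold lower in the knockout (adjusted p = 0.00041). CDH5 had 36 counts in parental libraries, 26 of them in parental tumour 3, and 0 in knockout libraries. KDR had 38 and 9 counts, with overlapping groups. TEK (28 and 24 counts) and ESAM (31 and 28 counts) differed little. CLDN5, GPIHBP1, EMCN and PLVAP had 4 counts or fewer in each group. The 10 fibroblast markers summed to 183 to 613 CPM and 347 to 609 CPM, with overlap and mostly from COL1A1. Of 6 fibroblast markers tested, LUM alone passed, 32.0-fold higher in the knockout (adjusted p = 1.98e-06). The part of other cell types in the droplet and uptake results was not tested.

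Among the 6 oxidation genes 1 passed, ACADM, a share of 16.7% beside the 27.0% of all genes tested. ACADM, the medium-chain acyl-CoA dehydrogenase, averaged 46.4 ± 5.33 CPM in parental tumours and 37.8 ± 1.499 CPM in knockout tumours (n = 4 per group, SD) and fell by 0.29 on the log2 scale (adjusted p = 0.0425), and the call was lost without any tumour except parental 2 or 3 (adjusted p up to 0.119). CPT1A, which commits fatty acids to mitochondrial entry, averaged 153 ± 22.4 and 122 ± 8.42 CPM (n = 4 per group, SD). Its log2 fold change was -0.33 (interval -0.57 to -0.08) with an adjusted p of 0.0503. Parental tumour 3 stood at 119.6 CPM, apart from the other parental tumours at 161 to 167 CPM, and without it CPT1A passed at an adjusted p of 0.00502.

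CPT2, the inner-membrane partner of CPT1A, averaged 36.9 ± 2.44 and 32.6 ± 2.52 CPM (n = 4 per group, SD; log2 fold change -0.18, adjusted p = 0.173), with groups that did not overlap. HADHA and HADHB form the trifunctional protein of long-chain oxidation. HADHA averaged 244 ± 12.4 and 219 ± 10.7 CPM (n = 4 per group, SD; log2 fold change -0.16, interval -0.33 to 0.01), also without overlap. HADHB averaged 121 ± 7.33 and 115 ± 1.33 CPM (n = 4 per group, SD; log2 fold change -0.07, interval -0.24 to 0.09). ACADVL, the very-long-chain dehydrogenase, averaged 368 ± 66.6 and 425 ± 38.4 CPM (n = 4 per group, SD; log2 fold change 0.21, interval -0.08 to 0.50). Parental tumour 4 held 268 CPM of ACADVL while the other parental tumours held 395 to 409 CPM.

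**Figure D5:**
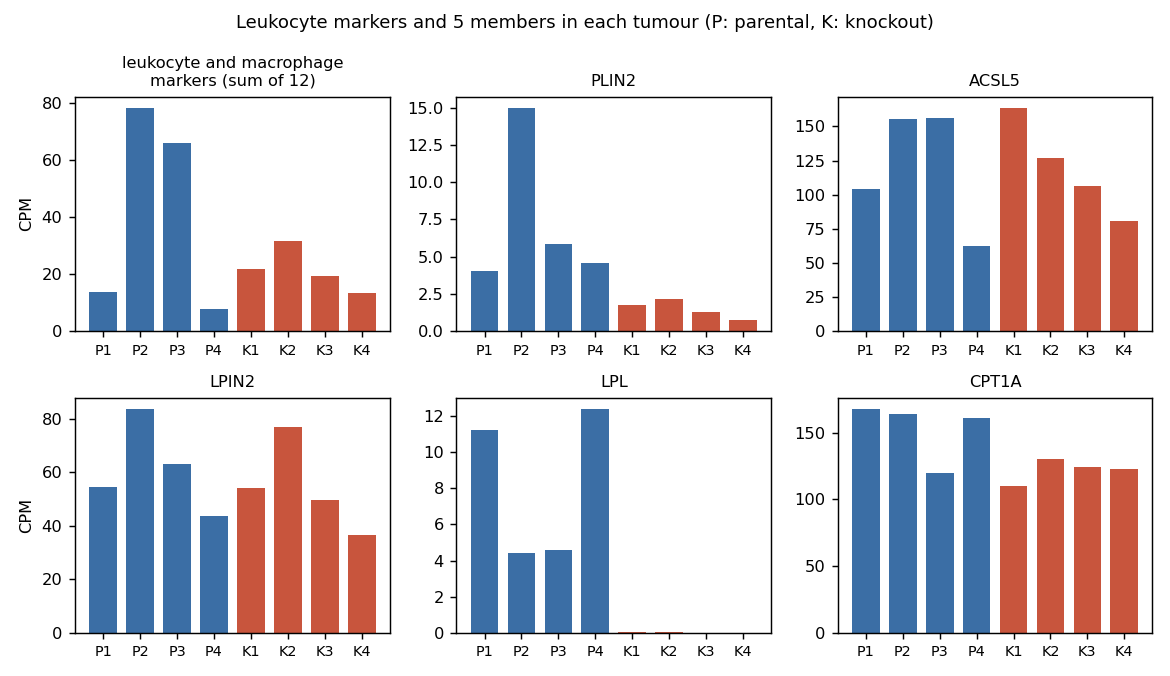
Summed leukocyte and macrophage marker CPM in each tumour beside the CPM of 5 lipid genes chosen after their values were seen, parental and knockout tumours side by side. Parental tumours 2 and 3 carry the highest marker sums (78.3 and 66.1 CPM). PLIN2 is highest in parental tumour 2 and LPL is lower in parental tumours 2 and 3 than in 1 and 4.

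The other genes of these pathways were read from a list of 137, of which 112 were tested. There 20 were higher and 10 lower in the knockout tumours, so 26.8% changed, close to the 27.0% of all genes tested, with a median log2 fold change of 0.00. Acyl-CoA activation and thioesterase genes had 6 of 10 higher and none lower, at a median of 0.47, where 13.0% of all genes tested were higher. The 6 were ACSM3 and the thioesterase genes ACOT4, ACOT7, ACOT9, ACOT11 and ACOT13. Mitochondrial oxidation had 1 of 23 higher and 3 lower, and none of 14 peroxisomal genes passed by edgeR, 3 of them having an unadjusted p under 0.05. Among genes past the threshold with a mean log2 CPM of at least 1, the largest rises were in PLIN5, PPARGC1A, ANGPTL4, HACD1 and DGKA. PLIN4 (log2 fold change 1.87, adjusted p = 0.00832) and ACSM3 (1.07, adjusted p = 0.0128) also rose but were below that level. PLIN5, a perilipin of oxidative tissues, averaged 1.63 ± 0.763 CPM in parental tumours and 5.12 ± 1.16 CPM in knockout tumours (n = 4 per group, SD; log2 fold change 1.65, adjusted p = 0.00207).

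PPARGC1A, the coactivator of mitochondrial genes, rose from 16.9 ± 6.70 to 46.3 ± 9.80 CPM (n = 4 per group, SD; adjusted p = 0.00147). ANGPTL4, a secreted inhibitor of lipoprotein lipase, rose from 12.8 ± 4.39 to 30.7 ± 9.67 CPM (n = 4 per group, SD; adjusted p = 0.0037), in the same tumours in which LPL was at or near 0. HACD1, a dehydratase of the elongation cycle, rose by 1.21 and DGKA, a diacylglycerol kinase, by 0.95 on the log2 scale (adjusted p = 6.49e-05 and 0.000415). By the same limits, the largest falls were in PDK4, AGPAT5, MLXIP, PPARGC1B and NR1H3. G0S2 had a log2 fold change of -0.73 and ACSS1 of -0.53, and neither passed (adjusted p = 0.0628 and 0.063). PDK4, the kinase that restrains pyruvate oxidation, fell by 0.94 on the log2 scale (adjusted p = 0.00865). AGPAT5, an acyltransferase of the AGPAT family, fell by 0.73 (adjusted p = 0.00155), and MLXIP, the ChREBP relative MondoA, by 0.62 on the log2 scale (adjusted p = 0.0003). PPARGC1B, a coactivator related to PPARGC1A, and NR1H3, which encodes the oxysterol receptor LXR alpha, each fell by 0.53 on the log2 scale (adjusted p = 0.0198 and 0.012). None of the 10 genes named as the largest rises or falls had overlapping groups. They were chosen from genes past the threshold in the same libraries, so this is not separate evidence of a change. Among all 112 of these pathway genes tested, 34 had groups that did not overlap, where 29.3% of all 16219 genes tested had such groups.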

How the data were processed

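The deposited files hold raw counts of reads per gene symbol, 1 file for each of the 8 tumours. The submitters' processing notes name TopHat2 2.1.1, HTSeq 0.11.0 and hg38; the annotation, the strand setting and any separation of host reads are not given in the sources used here. The protocol text in the labels names a kit but no strand. The 5 HTSeq summary lines were left out, and 79.1% to 85.2% of reads were assigned to genes. Libraries held 19785922 to 23191698 counts in parental and 20662882 to 21981123 in knockout tumours.

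Counts were filtered with filterByExpr (minimum count 10, minimum total 15), leaving 16219 of 59050 genes, scaled by TMM and tested with edgeR 4.0.16 (glmQLFit and glmQLFTest, R 4.3.3, knockout over parental), with Benjamini-Hochberg adjustment over all genes tested and a threshold of 0.05. CPM are counts scaled to the effective library size. Standard errors are the absolute fitted log2 coefficient, before edgeR's shrinkage toward 0, divided by the square root of F. The 95% intervals of log2 fold changes are centred on the reported value, which is after that shrinkage. Genes below the filter had an exact two-sided permutation test. Alternatives used DESeq2 1.42.0, limma 3.58.1 (voom), other scalings and filters, a replicate block and each library left out. The test was tried on simulated data. Levels per kilobase, positions and exon overlap use GENCODE 29, which held 95.5% of the symbols and all 50 genes, and promoters are from RefSeq.

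The 50 genes, their roles and the other lists were chosen with earlier results of these data known, so counts over a list are descriptions. Genes with an adjusted p under 0.001, or called with at least a 2-fold change, are given in every library; of the other pathway genes past the threshold, the 5 largest rises and falls whose mean log2 CPM reached 1 are named. PLIN4, ACSM3, G0S2 and ACSS1 were outside that rule and were chosen after their values were seen, as were the single marker genes. One adipocyte marker, TUSC5, was not used here. The labels do not tie same-numbered tumours of the groups to one animal, litter or day, and they are not treated as pairs.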

Additional observations from a re-analysis of the deposited data

Results flagged for a closer look

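In 4 of 97 sets of 4 values, 1 tumour lay far from the other 3 of its group, and chance alone gives about 5% of sets (4.85). PLIN2 was 14.99 CPM in parental tumour 2 (307 counts) against 4.04 to 5.85 CPM in the other parental tumours. That tumour also held the highest leukocyte and macrophage marker sum, 78.3 CPM, and the highest skeletal muscle marker sum, 46.1 CPM; their part in the PLIN2 value was not tested. CPT1A was 119.6 CPM in parental tumour 3 against 161 to 167 CPM in the others. ACADVL was 268 CPM in parental tumour 4 against 395 to 409 CPM. FABP4 was 0 CPM in parental tumour 1, where 0 counts allow up to 3, against 0.0850 to 0.0976 CPM in the other parental tumours, which held 2 counts each.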

How the results depend on the processing

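Of the 20 lipid genes called, 14 stayed past the threshold with the same direction in every one of 16 alternatives that could test them (the filter of 1 CPM in 4 libraries removes ELOVL3 and, among genes not called, PNPLA3), and all 14 also without parental tumours 2 and 3, an alternative chosen after seeing the data. AGPAT1, AGPAT2, AGPAT3, PNPLA2, LIPG and ACADM were lost in at least 1 alternative, and SREBF1, FADS3, ACSL1, ACSL4, MGLL and CPT1A were gained in at least 1. The number of lipid genes called ran from 15 to 21 when 1 library was left out and from 16 to 22 in fits on all 8 libraries; it was 24 without parental tumours 2 and 3. Over all genes, upper-quartile scaling gave 54.1% of calls as higher against 47.9% with TMM, and moved the median log2 fold change by 0.04.

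Deviations of same-numbered tumours from their group means correlated at -0.04, -0.01, -0.22 and 0.09 over the genes tested. Low correlations cannot show whether same-numbered tumours shared an animal, litter or day, which the labels do not give. With the replicate block, 16 lipid genes were called (7 higher, 9 lower) and 3871 genes in all. AGPAT1, AGPAT3, LIPG and ACADM lost their calls with the block.

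A few genes near 0 changed sign in at least 1 alternative. ELOVL5 had a log2 fold change of 0.0326 with upper-quartile scaling, 0.0032 with the 1 CPM filter, 0.0105 with the replicate block and 0.0099 with limma-voom, and ran from -0.11 to 0.10 with 1 library left out. ACSL5 had 0.0282, 0.0051, 0.0430 and 0.0455 in these settings, ran from -0.22 to 0.15 with 1 library left out, and was 0.51 without parental tumours 2 and 3. With 1 library left out, ELOVL7 ran from -0.058 to 0.22, LPIN2 from -0.38 to 0.016 and LPIN3 from -0.020 to 0.32. Without parental tumours 2 and 3, ELOVL7 was -0.15 and LPIN2 was 0.14. The cause was not tested. Depth limits ELOVL2, ELOVL3, ELOVL4, PNPLA3, FABP4, FABP5 and the knockout value of LPL.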
